A study of Homo sapiens with 12 samples.

Results

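The genes described here are the G1 cyclins, their kinases and the RB family, the core of the switch that lets a cell leave G1 and start copying its DNA. They were chosen by name, as the rows of the count table that carry the symbol CCND1, CCND2, CCND3, CCNE1, CCNE2, CDK2, CDK4, CDK6, RB1 or RBL1. All 10 symbols had a row, out of 16389 genes. The samples were 12 libraries of HepG2, an established human liver cancer cell line with hepatocyte characters, grown for 48 h in 5.5 mM (LG) or 20 mM (HG) glucose. In the LGV and HGV groups the cells of the same media then received 1 mM valproic acid (VPA) for another 12 h. VPA is an inhibitor of class I histone deacetylases and an antiepileptic drug. The LG and HG groups were the untreated controls. Whether these controls were also kept for the further 12 h is not stated. If they were not, VPA and time in culture cannot be told apart. Each of the 4 groups had 3 libraries, called triplicates in the study. No label says whether they came from separate cultures, so p-values measure only the spread between these libraries, which may be technical. All the cells belonged to 1 transformed line, a limited model of a normal liver cell.

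Cyclins of the D type bind and activate CDK4 and CDK6 in response to growth signals, and these complexes begin to phosphorylate the retinoblastoma protein (the product of RB1) and its relatives, p107 (RBL1) and p130 (RBL2). Unphosphorylated RB holds E2F transcription factors in check. Once it is phosphorylated, E2F factors switch on the genes of S phase, and cyclin E with CDK2 completes the phosphorylation and fires DNA replication. Proteins of the INK4 and CIP/KIP families inhibit these kinases. Class I histone deacetylases are among the partners through which RB proteins repress E2F target genes.

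Between 29798442 and 45572694 reads were counted per library. All 9 markers of hepatocyte-derived cells were in the table, and their summed level averaged 54743 CPM (read counts scaled to library size with TMM factors, here and throughout) in LG, 57039 in HG, 40593 in LGV and 52479.8 in HGV. After VPA, 6 of these 9 fell in LG medium, beside 19.9% of all genes tested. In HG medium 2 fell and 1 rose, beside 20.2% and 25.8%. Between HG and LG 2 of the markers were higher, beside 12.0% of all genes. Between HGV and LGV 4 were higher, beside 21.2%. Of 5 markers of blood, vessel and connective tissue cells, 4 had no row and the fifth, the collagen gene COL1A1, averaged from 0.226 CPM in LG to 1.97 in HGV. Whether these shifts have a part in the values below was not tested, and in bulk RNA fewer cells of a phase and less RNA per cell cannot be told apart. HGV replicate 2 had the highest values of CCND3, CCNE1, CDK2 and CDK4 and the lowest of CCNE2, CDK6, RB1 and RBL1 among the HGV libraries.

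After VPA 7 of the 10 genes passed the test in each medium, while between glucose levels few did. In HG medium, 6 of the 10 genes rose after VPA (CCND1, CCND2, CCND3, CCNE1, CDK2 and RB1) and 1 fell (CDK6), at a false discovery rate (FDR) of 0.05 or less in edgeR's quasi-likelihood test. Over all 16188 genes tested in that comparison 25.8% rose and 20.2% fell. In LG medium 5 rose (CCND2, CCND3, CCNE1, CDK2 and RB1) and 2 fell (CDK4 and CDK6), against 21.7% and 19.9% of 15944 genes. The median log2 fold change of the 10 genes was 0.49 in HG medium and 0.51 in LG medium, beside 0.02 and -0.01 over all genes tested. CCND2, CCND3, CCNE1, CDK2, CDK6 and RB1, 6 of the genes, were called in both media. Only 1 of the 10, CDK2, differed between the glucose levels under VPA, and 0 did without VPA.

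**Figure D1:**
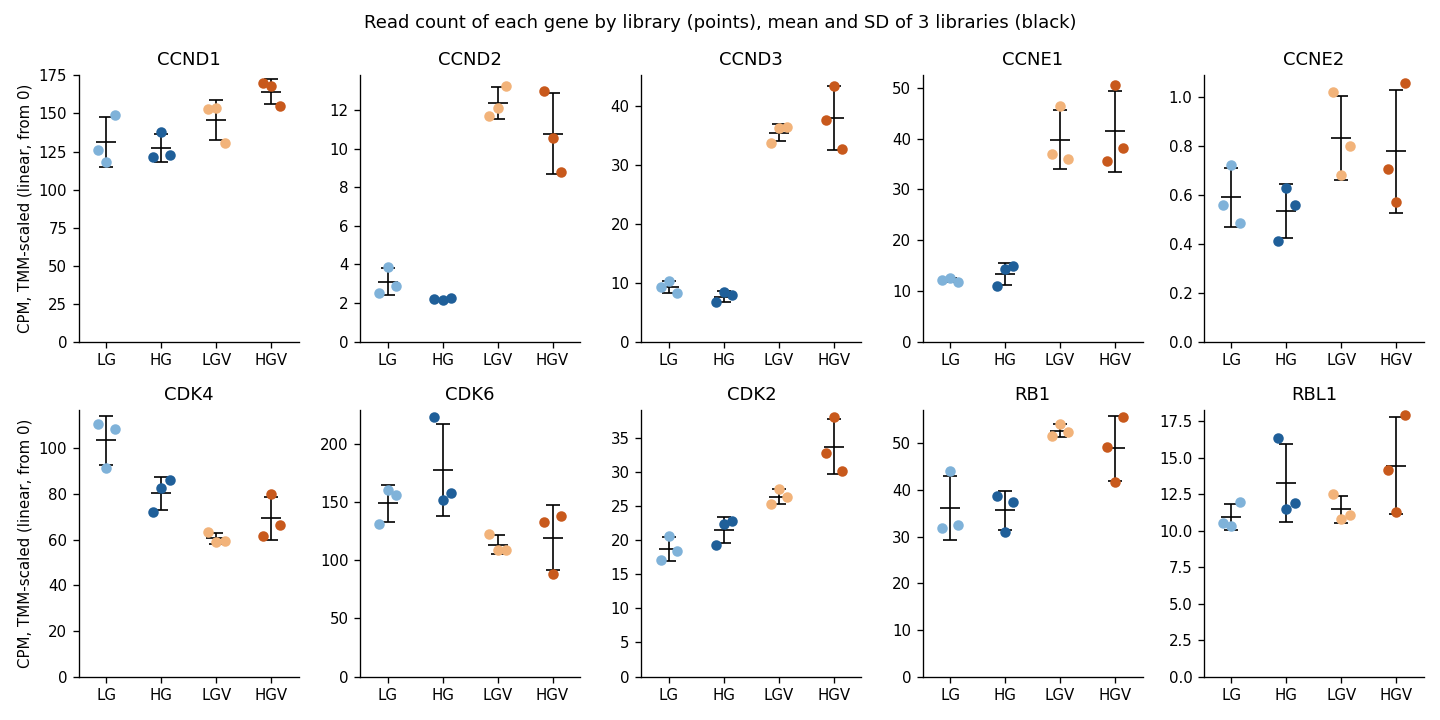
Levels of the 10 genes in each library, as CPM on linear axes that start at 0, by group; points are single libraries, and the black marks give the mean and SD of 3 libraries. CCND2, CCND3 and CCNE1 stand apart between untreated and VPA-treated libraries, while CCND1, CCNE2 and RBL1 overlap between at least LG and LGV.

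The D-type cyclins answered VPA unequally. CCND2 (GRCh37, chr12:4378937-4414519, plus strand), the D cyclin best known from lymphoid, germ and nerve cells, was the scarce one, at 2.54, 3.87 and 2.91 CPM in the LG libraries and 11.7, 12.1 and 13.3 CPM in the LGV libraries. In HG it stood at 2.19, 2.18 and 2.24 CPM, and in HGV at 13.0, 10.5 and 8.79 CPM. No library overlapped between treated and untreated cells in either medium. The rise was 3.98-fold in LG medium (log2 1.99 ± 0.20 SE, FDR = 2.04e-06) and 4.87-fold in HG medium (log2 2.29 ± 0.18, FDR = 7.79e-07).

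CCND3 (chr6:41902672-42018095, minus strand), the D cyclin expressed in most tissues, rose by about as much from a higher base. Its LG libraries held 9.27, 10.3 and 8.30 CPM and its LGV libraries 33.7, 36.2 and 36.4 CPM. The HG libraries held 6.69, 8.37 and 7.95 CPM and the HGV libraries 37.7, 43.4 and 32.7 CPM. Treated and untreated libraries were again apart, by 3.85-fold in LG medium (log2 1.95 ± 0.14, FDR = 1.02e-07) and by 4.94-fold in HG medium (log2 2.31 ± 0.14, FDR = 1.28e-07). By p-value this put CCND3 at rank 113 and rank 211 of all genes in these comparisons.

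CCND1 (chr11:69455924-69469242, plus strand), the D cyclin most often amplified in cancers and a target of Wnt and growth factor signalling, had the smallest difference among the D cyclins. It stood at 126, 118 and 149 CPM in LG and at 153, 154 and 130.3 CPM in LGV, ranges that overlap, with a log2 fold change of 0.16 (95% interval -0.11 to 0.44, FDR = 0.343). In HG it stood at 121, 138 and 123 CPM and in HGV at 170.1, 168 and 155 CPM. All HGV libraries were above all HG libraries, and the rise of 1.29-fold passed the test (log2 0.37 ± 0.10, FDR = 0.00923), though not without HG replicate 3 (FDR = 0.0597). A difference between the VPA effects on CCND1 in the 2 media was not detectable with these libraries (interaction log2 0.22, 95% interval -0.13 to 0.56, FDR = 0.664). CCND1 shares 10.4% of its exon bases with LTO1 on the other strand, listed as ORAOV1, which averaged 16.9 to 22.3 CPM by group.

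Set side by side per kb of exon, the 3 D cyclins changed their proportions. In LG, CCND1 made up 93.1% ± 1.46 (SD, n = 3) of the summed D cyclin level, CCND3 5.52% ± 1.12 and CCND2 1.34% ± 0.39. In LGV the shares were 79.8% ± 2.13, 16.1% ± 1.58 and 4.06% ± 0.56. In HG and HGV the share of CCND1 was 94.3% ± 0.36 and 81.4% ± 1.41, and that of CCND3 4.69% ± 0.36 and 15.5% ± 1.41. The lowest CCND1 share in an untreated library, 91.6%, lay above the highest in a treated one, 82.7%. The summed level was 29.6 ± 3.20 CPM per kb in LG and 38.3 ± 2.58 in LGV, and 28.4 ± 2.02 in HG and 42.4 ± 2.72 in HGV. CCND1 thus remained the most abundant D cyclin, 5.27 times the level of CCND3 per kb in HGV against 20.1 times in HG.

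**Figure D2:**
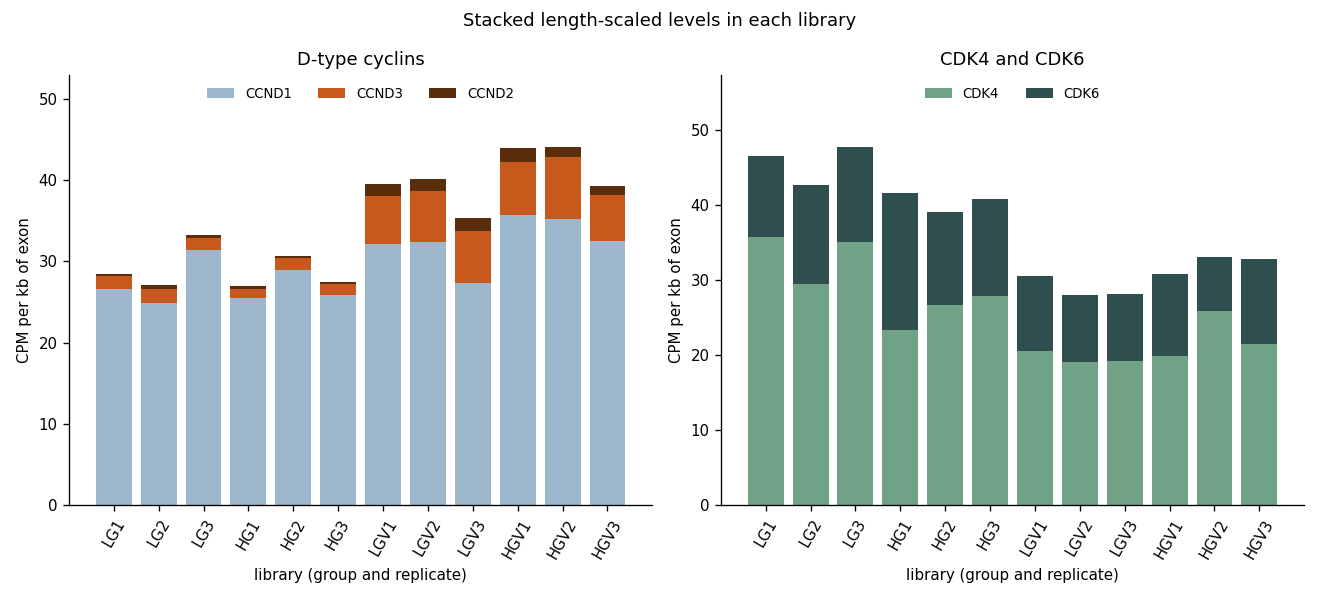
Stacked bars of the length-scaled level (CPM per kb of exon) of the D-type cyclins (left) and of CDK4 and CDK6 (right) in each of the 12 libraries. The CCND3 and CCND2 segments widen in the 6 VPA-treated libraries, and the summed CDK4 and CDK6 level of each treated library, at most 33.0, is below that of each untreated library, at least 39.1.

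CDK4 and CDK6, the catalytic partners of the D cyclins, both fell in LG medium, while in HG medium only the fall of CDK6 passed. CDK4 (chr12:58141510-58149796, minus strand) stood at 111, 91.2 and 108 CPM in LG and at 63.5, 59.0 and 59.5 CPM in LGV. Every LGV library was below every LG library, and the fall was 1.69-fold (log2 -0.76 ± 0.12, FDR = 0.000129). HG libraries held 72.2, 82.7 and 86.1 CPM and HGV libraries 61.4, 79.9 and 66.5 CPM, which overlap (log2 -0.21, 95% interval -0.48 to 0.05, FDR = 0.169). Without HGV replicate 2 this difference passed the test (log2 -0.32, FDR = 0.0246).

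A test of the difference between the VPA effects on CDK4 in the 2 media gave an interaction of log2 0.56 (95% interval 0.20 to 0.92), the largest of the 10 genes, with an unadjusted p of 0.00412 and an FDR of 0.192. It therefore did not pass, and the fall of CDK4 is not shown to differ between media. Of the exon bases of CDK4, 44.2% are shared with TSPAN31, a tetraspanin gene on the other strand. Strand use in counting is not given in the sources used here, so reads of the pair may have been set aside or shared. TSPAN31 averaged 16.8 CPM in LG and 14.8 in LGV (log2 -0.17, FDR = 0.424).

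CDK6 (chr7:92234235-92465887, minus strand), the other D cyclin kinase, fell in both media, with a wide spread between HG and between HGV libraries. It stood at 131, 161 and 156 CPM in LG and at 123, 109 and 109 CPM in LGV (log2 -0.39 ± 0.12, FDR = 0.0205). In HG it stood at 223, 152 and 158 CPM and in HGV at 133, 88.0 and 138 CPM (log2 -0.57 ± 0.18, FDR = 0.0215). Treated and untreated libraries did not overlap in either medium, yet both calls were lost with scaling to library size alone (FDR = 0.176 in LG medium, 0.0792 in HG medium). In HG medium the call was also lost without HG replicate 1, the highest library (FDR = 0.0808). In LG medium it was lost without LG replicate 2, LG replicate 3, LGV replicate 2 or LGV replicate 3, with an FDR from 0.0501 to 0.108, and in one fit of the 12 libraries (FDR = 0.0527).

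Together CDK4 and CDK6 summed to 45.7 ± 2.68 CPM per kb (SD, n = 3) in LG and 28.9 ± 1.45 in LGV, and to 40.5 ± 1.24 in HG and 32.2 ± 1.25 in HGV. CDK4 made up 73.1% of the sum in LG, 64.2% in HG, 67.9% in LGV and 69.5% in HGV, with the LG libraries, from 69.1% to 76.9%, above all HG and LGV libraries. While the summed level of the D cyclins was higher in the treated libraries, that of their kinases was lower. The sums and shares divide by all exon bases of CDK4, so they depend on how reads shared with TSPAN31 were counted.

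Of the E-type cyclins, which activate CDK2, one rose and the other was barely counted. CCNE1 (chr19:30302898-30315219, plus strand) stood at 12.1, 12.6 and 11.8 CPM in LG and at 36.9, 46.4 and 36.0 CPM in LGV. In HG it stood at 10.9, 14.2 and 14.9 CPM and in HGV at 35.7, 50.6 and 38.1 CPM. Every treated library exceeded every untreated one by more than the spread within groups. The rise was 3.29-fold in LG medium (log2 1.72 ± 0.14, FDR = 3.63e-07) and 3.10-fold in HG medium (log2 1.63 ± 0.16, FDR = 5.03e-06), and the interaction was -0.07 (95% interval -0.52 to 0.38).

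CCNE2, the second E cyclin, had 13 to 36 reads in any library. Its mean was 0.590 CPM in LG, 0.834 in LGV, 0.533 in HG and 0.778 in HGV, and treated and untreated libraries overlapped. The log2 fold changes of 0.51 (95% interval -0.20 to 1.21) and 0.53 (-0.21 to 1.26) did not pass, and a difference within these intervals was not detectable at this depth. CCNE2 shares 37.1% of its exon bases with INTS8, a gene of the Integrator complex on the other strand that rose after VPA (log2 0.91 in LG medium and 0.66 in HG medium). Per kb, CCNE1 made up 97.4% of the E cyclin level in LG and 98.8% in LGV.

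CDK2 (chr12:56360565-56366573, plus strand), the kinase of cyclin E and later of cyclin A, rose modestly. It stood at 17.0, 20.6 and 18.4 CPM in LG and at 25.3, 27.5 and 26.3 CPM in LGV (1.42-fold, log2 0.51 ± 0.13, FDR = 0.00633). HG libraries held 19.3, 22.4 and 22.9 CPM and HGV libraries 32.7, 38.1 and 30.2 CPM (1.56-fold, log2 0.65 ± 0.12, FDR = 0.00104). Groups did not overlap in either medium. CDK2 shares 14.5% of its exon bases with a gene without a row and 2.29% with PMEL, both on the other strand. PMEL averaged 0.637 CPM in LG and 6.94 in HGV. It rose after VPA (log2 2.36 in LG medium and 2.72 in HG medium) and was higher in HGV than in LGV (1.09). Whether its reads reach the CDK2 counts was not tested. CCNE1 and CDK2 had about the same level per kb in untreated cells, with a ratio of 1.03 in LG and 0.97 in HG, and CCNE1 exceeded CDK2 by 2.37 times in LGV and 1.93 times in HGV.

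Of the pocket proteins, which hold E2F factors, RB1 rose in both media and RBL1 did not pass, and the difference between their responses was not tested. RB1 (chr13:48877880-49173572, plus strand), the retinoblastoma tumour suppressor, stood at 31.9, 44.1 and 32.5 CPM in LG and at 51.5, 54.3 and 52.4 CPM in LGV (1.47-fold, log2 0.55 ± 0.14, FDR = 0.00437). In HG it stood at 38.7, 30.9 and 37.5 CPM and in HGV at 49.3, 41.8 and 55.8 CPM (1.37-fold, log2 0.45 ± 0.13, FDR = 0.0137). Libraries did not overlap, but in HG medium the call was lost without HG replicate 2 (FDR = 0.0680) or HGV replicate 3 (FDR = 0.0678).

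RBL1 (chr20:35624752-35724400, minus strand), which encodes p107 and is itself a classical E2F target, ranged from 10.3 to 12.0 CPM in LG, 10.8 to 12.5 in LGV, 11.5 to 16.3 in HG and 11.3 to 17.9 in HGV. All these ranges overlap. The log2 fold change after VPA was 0.08 in LG medium (95% interval -0.26 to 0.42, FDR = 0.727) and 0.12 in HG medium (-0.28 to 0.53, FDR = 0.619). RB1 was 3.03 times the level of RBL1 per kb in LG and 4.27 times in LGV, and 2.51 times in HG and 3.17 times in HGV. The ratios of treated and untreated libraries overlapped in both media.

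The stretches upstream of CCND3 and CCNE1, which rose together in both media, and of RBL1, which did not pass, are shown for comparison. They are the 250 bases before the gene start on GRCh38.p14 as RefSeq gives them, 5′ to 3′ on the strand of the gene, at chr6:42048689-42048938 (minus strand), chr19:29811741-29811990 (plus strand) and chr20:37095998-37096247 (minus strand). Capitals mark GC boxes (GGGCGG on either strand, the letters of an Sp1 site) and E2F letters (TTTCCCGC, TTTCGCGC, TTTGCCGC or TTTGGCGC on either strand). For CCND3 the start is the outermost one, and counts per gene do not show which start was used.
CCND3: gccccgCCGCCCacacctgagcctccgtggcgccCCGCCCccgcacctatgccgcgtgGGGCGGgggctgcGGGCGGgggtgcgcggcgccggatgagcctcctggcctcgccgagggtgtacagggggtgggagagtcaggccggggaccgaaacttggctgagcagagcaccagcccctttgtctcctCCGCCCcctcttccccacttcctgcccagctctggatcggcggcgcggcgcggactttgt
CCNE1: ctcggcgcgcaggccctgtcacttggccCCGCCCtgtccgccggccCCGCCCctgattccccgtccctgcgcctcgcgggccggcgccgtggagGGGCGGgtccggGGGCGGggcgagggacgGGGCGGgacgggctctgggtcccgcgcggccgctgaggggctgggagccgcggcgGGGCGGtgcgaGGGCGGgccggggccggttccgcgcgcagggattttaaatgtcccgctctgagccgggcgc
RBL1: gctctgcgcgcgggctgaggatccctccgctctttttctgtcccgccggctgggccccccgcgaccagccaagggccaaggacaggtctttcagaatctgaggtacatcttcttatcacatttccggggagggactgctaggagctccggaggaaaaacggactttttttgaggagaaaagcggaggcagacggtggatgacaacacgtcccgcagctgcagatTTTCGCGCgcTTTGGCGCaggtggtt

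CCND3 held 5 GC boxes and CCNE1 held 7, while RBL1 held 0 GC boxes and 2 E2F matches. Over 27305 RefSeq promoters of the same length, 42.3% held a GC box and 2.79% an E2F match. The same table held CDK4, CDK6 and RB1, and 6 of the 10 genes in all. CDK4 and CDK6 held 3 GC boxes each, so genes that rose and genes that fell both carried these letters. RB1, which rose in both media, had an entry of 36.8% GC with 0 of either motif. That entry was not shown to lie at the start of the gene, so its letters are not set beside those of the others. A match of letters is not evidence of binding.

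**Figure D3:**
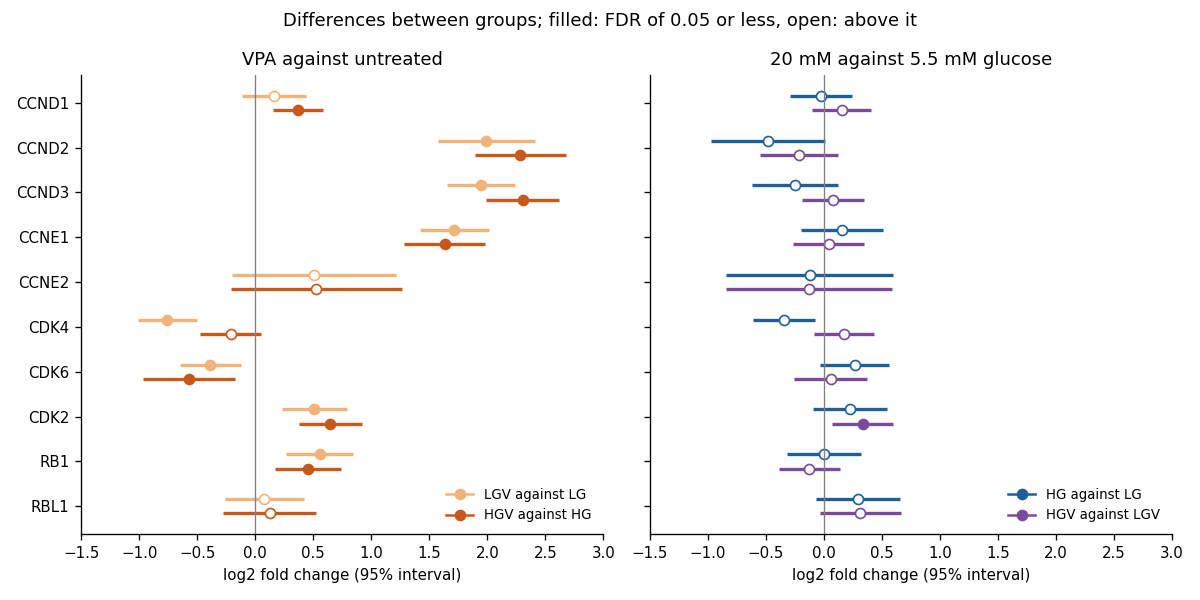
Log2 fold changes of the 10 genes (points) with 95% intervals (lines), for VPA against untreated cells in each medium (left) and for 20 mM against 5.5 mM glucose without and with VPA (right); filled points have an FDR of 0.05 or less. CCND2, CCND3 and CCNE1 lie between 1.63 and 2.31 on the left, while on the right only the point of CDK2 under VPA is filled.

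Glucose alone was tested next. Between HG and LG, 0 of the 10 genes passed edgeR's quasi-likelihood test, where 12.0% of 15452 genes rose and 12.7% fell. At an unadjusted p under 0.05 in the same test the count was 1, CDK4. At an FDR of 0.05 or less it was 0 with DESeq2's Wald test and 1 with edgeR's likelihood ratio test. CDK4 averaged 104 ± 10.7 CPM (SD, n = 3) in LG and 80.3 ± 7.27 in HG, with no overlap between libraries (log2 -0.34, 95% interval -0.61 to -0.07, FDR = 0.0569). This was the value closest to the threshold, and it passed without LG replicate 2 (FDR = 0.0324). The LG and HG libraries of CCND2 did not overlap either (log2 -0.48, 95% interval -0.97 to 0.01, FDR = 0.139).

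The intervals for the other 8 genes ranged from log2 -0.84 to 0.65. They therefore allow differences of a size that the test would not have called with 3 libraries a group. RB1 and CCND1 were closest to no difference, at log2 -0.001 (95% interval -0.32 to 0.32) and -0.02 (-0.29 to 0.25).

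Between HGV and LGV, 1 of the 10 genes, CDK2, was higher, where 21.2% of 16208 genes were higher and 19.5% lower. CDK2 averaged 33.7 ± 4.02 CPM in HGV and 26.4 ± 1.13 in LGV, without overlap (1.26-fold, log2 0.34 ± 0.13, FDR = 0.0401). The call did not outlast the loss of any one of LGV replicate 1, LGV replicate 2, LGV replicate 3, HGV replicate 1 or HGV replicate 2, with an FDR from 0.0700 to 0.129. RBL1 averaged 14.5 CPM in HGV and 11.5 in LGV (log2 0.31, FDR = 0.142), and passed without HGV replicate 2 (log2 0.47, FDR = 0.0219).

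The interaction of glucose and VPA passed for 0 of the 10 genes in edgeR's quasi-likelihood test, and for 7 of 16389 genes in all (0.0427%). At an unadjusted p under 0.05 in the same test the count was 1, again CDK4. At an FDR of 0.05 or less DESeq2's Wald test and edgeR's likelihood ratio test each gave 0. For CCND3 the estimate was 0.37 (95% interval -0.04 to 0.78) and for CCND2 0.31 (-0.25 to 0.86).

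Ranked per kb of exon, CDK4 (33.4 CPM per kb) and CCND1 (27.6) were the most abundant of the 10 transcripts in LG, with overlapping libraries, followed by CDK6 (12.2), RB1 (5.62), CCNE1 (4.96), CDK2 (4.80), RBL1 (1.84), CCND3 (1.61), CCND2 (0.389) and CCNE2 (0.134). RB1, CCNE1 and CDK2 could not be separated by their ranges, nor could RBL1 and CCND3. In HG the order was the same but for CCND1 above CDK4 and CDK2 above CCNE1, both within overlapping ranges. With VPA, CCNE1 came next after CCND1 and CDK4, at 16.2 CPM per kb in LGV and 16.8 in HGV, overlapping CDK4 in HGV, and CCND3, at 6.15 and 6.59, passed RBL1. CCND1 then led in both media without overlap with CDK4, at 30.6 against 19.6 in LGV and 34.5 against 22.4 in HGV. These levels divide by all exon bases, also those that CDK4 shares with TSPAN31. If reads there were set aside, the level of CDK4 is too low, and its place beside CCND1 is not settled in any group.

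CCND2 had the widest range of group means of the 10 genes, log2 2.42. The 5 genes whose centred log2 CPM over the 12 libraries came closest to it were PAQR5, a membrane progestin receptor (root mean square difference 0.17), TGFB3, a transforming growth factor beta ligand (0.19), HOXC13, a homeobox factor (0.20), CCND3 (0.20) and INA, a neuronal intermediate filament (0.20). The median difference over all genes was 1.12. HOXC13 was scarce, with a mean of log2 -1.97 CPM in LG and -0.09 in LGV.

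The wider pathway was described with lists of gene symbols. Of the 7 CDK inhibitors, 6 had a row. After VPA 4 of these rose in LG medium and 3 in HG medium, beside 21.7% and 25.8% of all genes. The others did not pass. In HG medium the number of rises was 2 without HG replicate 1 or in one fit of the 12 libraries, and 1 inhibitor fell with DESeq2's size factors or Wald test. In LG medium it was 5 without LG replicate 2 or LGV replicate 1, with the replicate block or with library size alone. The list's median log2 fold change was 1.04 and 0.36, beside -0.01 and 0.02 over all genes. CDKN2D, which encodes the CDK4 and CDK6 inhibitor p19, rose by log2 1.99 ± 0.20 (FDR = 2.45e-06) in LG medium and 2.30 ± 0.14 (FDR = 8.65e-08) in HG medium. In LG medium CDKN2B and CDKN2A, of the same INK4 family, rose by log2 1.17 and 1.06. CDKN2C, a further INK4 member, rose by 1.03 in LG medium and 0.79 in HG medium, and CDKN1A, the p21 inhibitor, by 0.44 in HG medium. Between HGV and LGV, 3 inhibitors were lower, namely CDKN2B (log2 -0.77), CDKN1A (-0.67) and CDKN2A (-0.59), beside 19.5% of all genes.

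E2F factors and their dimer partners, listed with RBL2 as 11 RB partners, had 4 higher and 1 lower after VPA in HG medium, beside 25.8% and 20.2% of all genes, and 2 higher and 1 lower in LG medium, beside 21.7% and 19.9%. The list's medians were log2 0.10 and -0.01. E2F2, an activator of S phase genes, rose in both, by log2 1.40 ± 0.17 and 1.63 ± 0.34. In HG medium E2F1, another activator, rose by 0.73 and E2F8, an atypical repressor, by 0.70, while TFDP2, a dimer partner, fell by 0.32 on the log2 scale. In LG medium E2F3 rose by 0.38 and E2F4, a factor of resting cells, fell by 0.42 on the log2 scale. E2F1, E2F2 and E2F8 were also higher in HG than in LG (log2 0.86, 1.39 and 1.30). They were 3 of the 11, with 0 lower, beside 12.0% and 12.7% of all genes. In this comparison 0 of the 10 cyclin, kinase and pocket protein genes passed. Between HGV and LGV 4 of the 11 were higher and 2 lower, beside 21.2% and 19.5% of all genes. E2F1 was higher by log2 1.56, and E2F3 was lower (-0.53). The number of lower genes was 1 without LGV replicate 2, LGV replicate 3, HGV replicate 1 or HGV replicate 3. For HG against LG the number of calls was 1 in place of 3 without LG replicate 1. After VPA the number of rises was 2 in place of 4 in HG medium without HGV replicate 3, and 1 in place of 2 in LG medium without LG replicate 1, LGV replicate 2 or LGV replicate 3. The number of falls in HG medium was 3 in place of 1 without HGV replicate 2, and 0 without HG replicate 3 or HGV replicate 1 or with library size alone.

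Of 18 E2F target genes of S phase, 9 were higher and 1 lower in HG than in LG, beside 12.0% and 12.7% of all genes. The list's median was log2 0.46, beside 0.01 over all genes. UHRF1, a factor that maintains DNA methylation, was higher by log2 1.12, MCM6, a subunit of the replicative helicase, by 0.81 and TK1, thymidine kinase, by 0.80, while CDC6, a loader of that helicase, was lower (-0.89). The number of higher genes was 2 without LG replicate 1, 4 without HG replicate 2 or HG replicate 3, and 14 without LG replicate 3. Between HGV and LGV 15 of the 18 were higher, beside 21.2% of all genes, with a median of 0.83. Among them were TK1 (1.75) and RRM2, a ribonucleotide reductase subunit (1.64). In these comparisons 0 and 1 of the 10 genes of the G1 switch passed.

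After VPA the same 18 targets gave 8 higher and 2 lower in HG medium (median 0.33), beside 25.8% and 20.2% of all genes. In LG medium they gave 2 higher and 6 lower (median -0.09), beside 21.7% and 19.9%. In LG medium the number of higher genes was 1 without LGV replicate 1 or LGV replicate 3, and the median was 0.10 without LG replicate 3 and 0.07 with library size alone. TK1 (1.29), CDC6 (1.23) and UHRF1 (1.15) rose most in HG medium, and UHRF1 (1.43) and CDC6 (0.48) rose in LG medium. TYMS, thymidylate synthase, fell in both, by log2 1.47 and 1.09, and its end overlaps an antisense gene. MCM5, another helicase subunit, fell by 0.77 on the log2 scale in LG medium. In the interaction test the list's median was 0.44 beside 0.04 over all genes, and 0 of the 18 passed edgeR's quasi-likelihood test, 4 its likelihood ratio test and 1 DESeq2's Wald test, with 9 at an unadjusted p under 0.05.

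**Figure D4:**
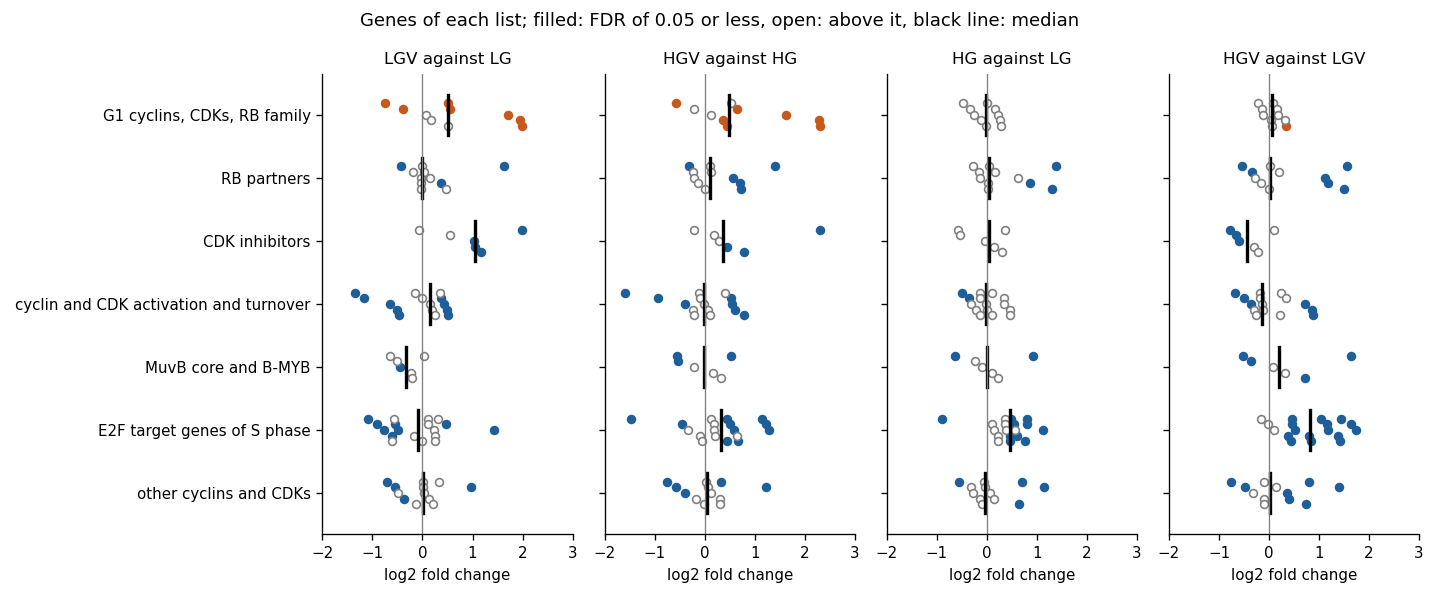
Log2 fold changes of the genes of each list in 4 comparisons; filled points have an FDR of 0.05 or less, open points do not, the 10 genes of the top row are in orange when filled, and black lines are medians. The top row spreads widely to the right in the VPA comparisons and stays near 0 in the glucose comparisons, where the E2F targets have medians of 0.46 and 0.83.

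Genes that activate or destroy cyclins and their kinases numbered 15, of which 4 rose and 3 fell after VPA in HG medium and 4 rose and 5 fell in LG medium. In HG medium these numbers come to about the shares of all genes, 25.8% and 20.2%. The shares of all genes in LG medium were 21.7% and 19.9%. The list's median was log2 -0.01 in HG medium and 0.15 in LG medium. In LG medium the counts depended on single libraries, with 1 higher and 3 lower without LGV replicate 3, 2 and 3 without LGV replicate 2, 2 and 5 without LG replicate 1, and 4 and 3 without LG replicate 3. CUL1, the scaffold of the SCF ubiquitin ligases that degrade cyclin E and other G1 regulators, fell by log2 1.60 ± 0.10 and 1.17 ± 0.12. FBXO4 and FBXO31, F-box proteins linked to the turnover of cyclin D1, fell too, by 0.93 and 0.40 on the log2 scale in HG medium and by 1.35 and 0.64 in LG medium. FBXW7, the F-box protein that recognises cyclin E, rose in LG medium (0.52), where CKS2, a kinase-binding subunit, rose by 0.50 and CDC37, the chaperone adaptor of CDK4, by 0.43. In HG medium SKP2, the F-box protein of p27, rose by 0.79, CDC37 by 0.61 and SKP1, an SCF adaptor, by 0.54. CDC25A, the phosphatase that activates CDK2, and SKP2 were higher in HGV than in LGV (0.88 and 0.85).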

How the data were processed

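Libraries of poly(A) RNA from HepG2 cells, made with a directional kit, were read from one end as 50 nt reads. Per the labels, the authors used STAR for alignment, the GRCh37 build, and featureCounts to assign reads to Ensembl genes, after trimming of poor bases and with a mapping quality of at least 10. The deposited values were raw counts without normalization, for 16389 genes, and each gene averaged at least 10 reads per sample. Strand use in counting is not given in the sources used here. Tests on the counts ran in R 4.3.3 with edgeR 4.0.16 (TMM factors, mean count of at least 10, quasi-likelihood F test, Benjamini-Hochberg over all genes tested, FDR of 0.05 or less). Each pairwise comparison used its own 6 libraries and the interaction used all 12. SE is the log2 fold change over the square root of F. Exon lengths, positions and overlaps came from GENCODE on GRCh37, in which 97.5% of identifiers were found. Promoters came from RefSeq on GRCh38.p14. Total counts ran from 29798442 to 45572694.

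The genes and lists were chosen with earlier results of these data known. Of each list, at most the 3 called genes with the largest rise and the 3 with the largest fall per comparison are named, and the 5 genes most like the one with the widest range. A single gene that met this rule was left out and is not reported here. Likeness used log2 of CPM plus 0.125. Alternatives were other scalings, filters and tests (DESeq2 1.42.0), a replicate block, one fit of all libraries, an FDR of 0.01 and leaving out each library. The edgeR test was also checked on simulated data.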

Additional observations from a re-analysis of the deposited data

How the results depend on the processing

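Under 14 alternatives each, CCND2, CCND3, CCNE1 and CDK2 kept their VPA calls in both media, as did CDK4 and RB1 in LG medium. Of 745 values of single genes under an alternative, 691 kept their direction and side of the threshold, 16 lost and 6 gained a call, and 32 changed sign, none of them of a gene called in that comparison. The cause was not tested. Between HG and LG the number of the 10 genes called was 1 instead of 0 with the likelihood ratio test, with 1 CPM in at least 3 libraries and in one fit of the 12 libraries, and from 0 to 1 when a library was left out. Between HGV and LGV it was 0 instead of 1 at an FDR of 0.01, and from 0 to 1 with a library left out.

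Scaling to library size alone moved the median of all genes by log2 0.12 (HGV against HG) and 0.16 (LGV against LG), with 5182 higher and 2424 lower genes instead of 4184 and 3272, and 4500 and 1956 instead of 3461 and 3177. It gave 2172 and 1297 instead of 1854 and 1959 (HG against LG) and 3761 and 2309 instead of 3444 and 3160 (HGV against LGV). With it, CCND1 (0.071) and RB1 (0.10) for HG against LG and the CCNE2 interaction (-0.026) changed sign. RB1 for HG against LG was 0.021 without a filter and 0.013 with the replicate block.

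With one library left out, log2 values that changed sign ranged as follows. RBL1 after VPA in HG medium ranged from -0.059 to 0.28. For HG against LG the ranges were -0.095 to 0.086 for CCND1, -0.27 to 0.091 for CCNE2 and -0.070 to 0.19 for RB1. For HGV against LGV they were -0.12 to 0.17 for CCNE1, -0.41 to 0.065 for CCNE2, -0.053 to 0.24 for CDK6 and -0.025 to 0.18 for CCND3. For the interaction they were -0.25 to 0.20 for CCNE2, -0.13 to 0.19 for RBL1 and -0.28 to 0.027 for CCNE1.

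Over all genes, HG against LG gave 3813 calls, and 1852 at an FDR of 0.01. The interaction gave 7 calls, 202 with the likelihood ratio test, 162 with DESeq2, 13 with the replicate block and 1 with library size or at an FDR of 0.01. The interaction gave 217 calls without LG replicate 2, 67 without LG replicate 3, 22 without LGV replicate 1 and 1 or 2 without any other library. HG against LG gave 1933 calls without LG replicate 1 and 2076 without HG replicate 3. Deviations of same-numbered libraries correlated weakly (from -0.20 to 0.30), and only for HGV against LGV were all positive (0.026, 0.20 and 0.029). The numbers were not taken as pairs. With the replicate block the number of the 10 genes called stayed at 7 and 7 after VPA, 0 for HG against LG, 1 for HGV against LGV and 0 for the interaction. Over all genes the block gave 8229 calls instead of 7456 (HGV against HG) and 6971 instead of 6638 (LGV against LG). It gave 7308 instead of 6604 (HGV against LGV) and 3351 instead of 3813 (HG against LG).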

Other observations

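Other cyclins and kinases, of later phases or of other roles, were measured beside the G1 genes. Of 12 with a row, 2 rose and 3 fell after VPA in HG medium and 1 rose and 3 fell in LG medium, beside 25.8% and 20.2% of all genes in HG medium and 21.7% and 19.9% in LG medium. In HG medium 1 rose without HG replicate 1, HG replicate 3 or HGV replicate 3, and 4 with library size alone. In HG and LG medium CCNA2 fell by 0.58 and 0.70 on the log2 scale, CCNB1 by 0.40 and 0.38 and CCNB2 by 0.75 and 0.55. These are cyclins of S phase and mitosis. In LG medium none of these 3 falls was called without LG replicate 3, without LGV replicate 2 or with library size alone, where the count was 0. CDK5, best known from neurons, rose by log2 1.23 in HG medium and 0.97 in LG medium. CCNF, a further cyclin of the list, rose by log2 0.33 in HG medium (FDR = 0.0450) and did not pass in LG medium (0.01). Between HG and LG, CDK1, the mitotic kinase, was higher by log2 1.15, CCNA2 by 0.70 and CCNB2 by 0.65, and CCNG2, a cyclin of arrested cells, was lower (-0.56). In all, 3 of the 12 were higher and 1 lower, beside 12.0% and 12.7% of all genes. Without LG replicate 1 the counts were 1 higher and 0 lower in place of 3 and 1. CCNG2 was also not called without LG replicate 2, HG replicate 2 or HG replicate 3 or with library size alone. Under VPA, 5 of the 12 were higher in HGV than in LGV and 2 lower, beside 21.2% and 19.5% of all genes. HGV exceeded LGV in CDK1 (1.41), CCNA2 (0.80) and CDK9 (0.74), while CCNG2 was again lower (-0.77), as was CCNT1 (-0.48).

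The MuvB core joins p107 or p130 in the repressive DREAM complex and B-MYB in an activating one. MYBL2, which encodes B-MYB, was higher in HG than in LG (log2 0.93 ± 0.21, FDR = 0.00397) and in HGV than in LGV (1.64 ± 0.15, FDR = 3.45e-07). LIN52, of the core, was lower in both comparisons (log2 -0.64, FDR = 0.00372, and -0.51, FDR = 0.0033). Between HGV and LGV, LIN37 was also higher (0.73) and RBBP4 lower (-0.37). In all, 1 gene of the list was higher and 1 lower in HG, beside 12.0% and 12.7% of all genes. In HGV 2 were higher and 2 lower, beside 21.2% and 19.5%. RBBP4, a histone chaperone shared with deacetylase complexes, fell after VPA by 0.45 on the log2 scale in LG medium and by 0.56 in HG medium. In LG medium the other 5 genes of this list of 6 did not pass, and the call of RBBP4 was lost without LG replicate 2, without LGV replicate 1 and with library size alone. In HG medium MYBL2 rose by log2 0.53 (FDR = 0.0278), a call lost without HG replicate 1, HG replicate 3 or HGV replicate 3, and LIN9, a core subunit, fell by 0.53 on the log2 scale (FDR = 0.0484). After VPA 1 gene of the list rose and 2 fell in HG medium, beside 25.8% and 20.2% of all genes. In LG medium 0 rose and 1 fell, beside 21.7% and 19.9%. In HG medium the falls numbered 1 in place of 2 without any single HG library or without HGV replicate 1 or 2. They also numbered 1 with library size alone and in one fit of the 12 libraries, and 3 without HGV replicate 3.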
